A study of Mus musculus with 2 samples.

Results

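The genes described here are 34 mouse genes of ribosome biogenesis and the nucleolus, chosen by name and found by matching the feature identifiers to gene symbols, out of 43346 annotated genes in the deposited tables. All 34 were found. RNA came from CH12.LX, a B-cell lymphoma line of strain B10.H-2aH-4bp/Wts, immortalized and female per the labels, with no treatment or genetic change stated. There were 2 libraries, replicates 1 and 2, each from its own biosample and both traced to the same donor record, so the 34 genes are described within 1 group of 2 and no condition is compared with another. The line stands for 1 tumour, the labels do not say how its cells were grown, and whether its levels hold for normal B cells was not tested. Per the assay title the RNA was total, per the sample text it was poly(A)+, and this was not settled. RNA longer than 200 nt was used, and ERCC spike-in RNAs were added.

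Ribosomes are built in the nucleolus, where RNA polymerase I transcribes a long ribosomal RNA precursor. Small nucleolar RNAs (snoRNAs) guide the modification of that precursor inside 2 families of particles, box C/D for ribose methylation and box H/ACA for pseudouridylation. A large assembly called the small-subunit processome forms on the nascent precursor, and further factors then mature the small (40S) and large (60S) subunits separately. The output of this pathway follows cell growth, and lymphoid cells that divide are known for large nucleoli.

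The libraries held 24469094 expected counts in replicate 1 and 23586580 in replicate 2. All 7 B-cell markers looked up were expressed, taken here as at least 1 TPM (a transcript's share of all transcripts in the library, on a fixed scale) in each replicate, from Pax5, a B-lineage factor, at 8.43 ± 0.933 TPM to Cd74, the invariant chain, at 2359 ± 165 TPM (SD, n = 2). Summed over their lists, 5 T-cell markers held 1.53 ± 0.396 TPM, 5 myeloid markers held 0.795 ± 0.0212 TPM, and 4 stromal, endothelial and epithelial markers held 1.31 ± 0.148 TPM (SD, n = 2). Of these 14 genes only Cd3g, a T-cell receptor subunit, reached 1 TPM in both, at 1.32 and 1.00 TPM. Cd3e, Cd14 and S100a8 had 0 counts in both, and for Cd3e a floor of 3 counts per library allows up to 0.118 TPM in replicate 1 and 0.123 TPM in replicate 2, for counting error only.

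Every one of the 34 genes was expressed, as were 45.9% of protein-coding genes and 25.4% of all annotated genes. A TPM level is per transcript length and relative to all other RNA in the library. Their median level was 100.25 TPM, against 19.2 TPM over the 9862 expressed protein-coding genes. Above that median lay 31 of the 34, above the upper quartile of 51.4 TPM lay 28, and 12 lay above 134 TPM, the level that 10% of expressed protein-coding genes exceed. Most were close together: 23 lay between 50 and 250 TPM, with 5 above 300 TPM and 3 under 20 TPM. The libraries are bulk RNA, so a lower level in every cell cannot be told apart from expression in fewer cells.

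**Figure D1:**
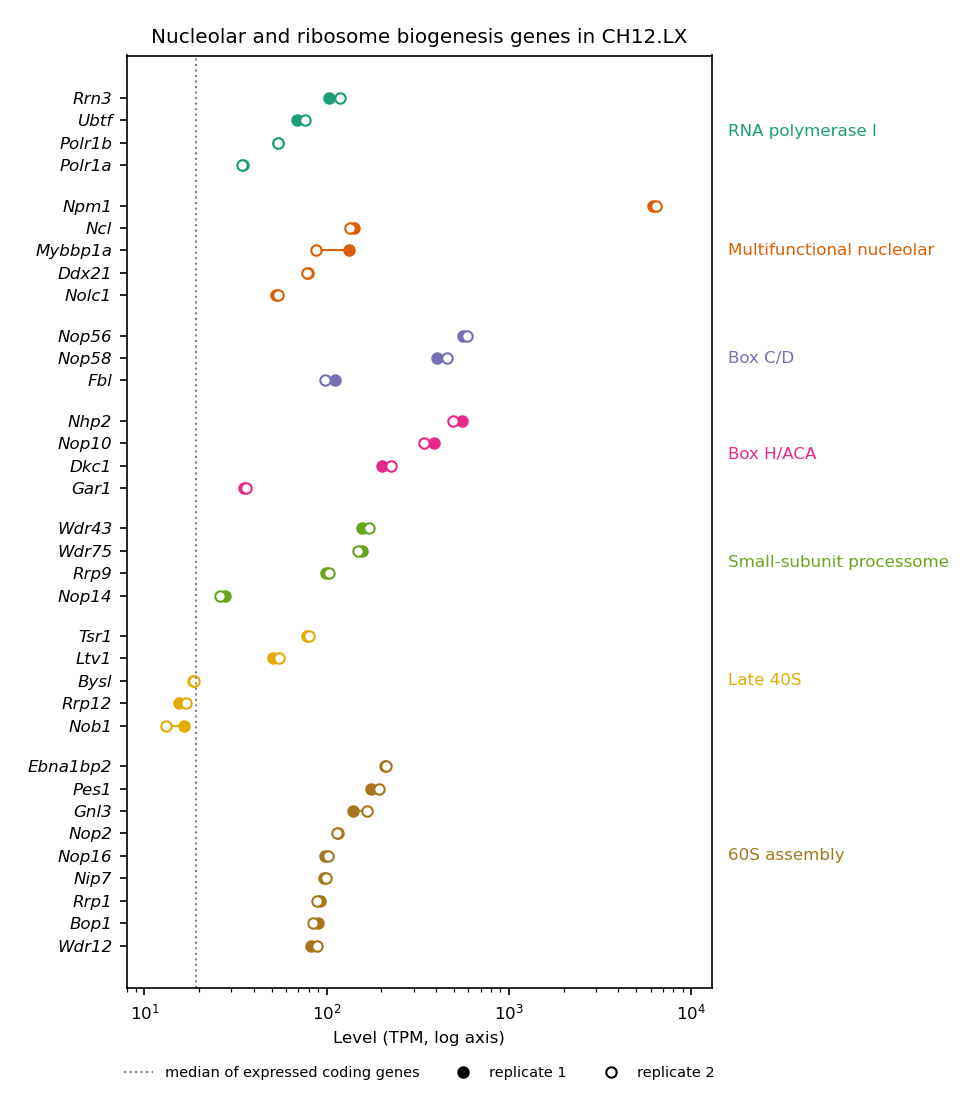
Level in TPM (log axis) of each of the 34 genes in replicate 1 (filled) and replicate 2 (open), grouped by role; the dotted line is the median of expressed protein-coding genes, 19.2 TPM. Npm1 stands alone near 6302 TPM, the 2 replicates nearly coincide for most genes, and Mybbp1a shows the widest gap.

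Transcription of ribosomal RNA was represented by 4 genes with a median of 63.4 TPM. Polr1a, the largest subunit of RNA polymerase I, encoded at chr6:71909053-71984935 on the plus strand of GRCm38, had 34.56 TPM in replicate 1 and 34.41 TPM in replicate 2. Polr1b, the second-largest subunit, had 54.14 and 54.15 TPM in replicates 1 and 2. The ratio of Polr1b to Polr1a was 1.57 ± 0.00503 (SD, n = 2), so the catalytic pair was not at equal RNA levels and its ratio varied little between libraries. Counting only protein-coding transcripts, an alternative chosen after the data were seen, the ratio was 1.34 ± 0.0250 (SD, n = 2). Ubtf, the upstream binding factor that coats active ribosomal DNA, had 69.08 and 76.28 TPM. Rrn3, which bridges the polymerase to its promoter complex, was the highest of the 4 at 103.58 and 117.79 TPM. The 4 ranges do not overlap, so their order held in both libraries. Of the 12 other polymerase I genes looked up, all were expressed with a median of 53.0 TPM, from Taf1c, a subunit of the promoter selectivity factor, at 8.64 and 6.87 TPM in replicates 1 and 2, to Polr1d, a subunit that RNA polymerases I and III share, at 271.6 and 290.0 TPM.

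Ubtf RNA was divided among several coding transcripts, which matter because the factor exists as splice forms that differ in one DNA-binding box. Its leading transcript, Ubtf-203, held 53.05% of the gene's TPM in replicate 1 and 43.94% in replicate 2. Ubtf-202 held 22.95% and 29.66%, and Ubtf-210 held 13.82% and 12.34%. The order of the 3 was the same in both libraries, while the gap between Ubtf-203 and Ubtf-202 was wider in replicate 1. Which of them encodes which form was not examined.

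Among the 5 multifunctional nucleolar genes, Npm1 was far above the rest of the pathway. Npm1, nucleophosmin, a chaperone that helps form the granular layer of the nucleolus, had 6184.85 TPM in replicate 1 and 6419.41 TPM in replicate 2. Its mean of 6302 ± 166 TPM (SD, n = 2) was 10.9-fold that of Nop56, the next gene, and 427-fold that of Nob1, the lowest. Npm1 alone made up 57.5% ± 0.554 of the summed TPM of the 34 genes (SD, n = 2), whose sum was 10822 TPM in replicate 1 and 11081 TPM in replicate 2. Without it the sums were 4637 and 4661 TPM and the median was 99.3 TPM, so the median hardly moved while the sum lost more than it kept. By expected counts the 34 genes together took 1.26% ± 0.0189 of each library.

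Npm1 lies on the minus strand at chr11:33152287-33163206 (GRCm38). No single transcript carried it: Npm1-204 held 37.97% and 39.86% of its TPM in replicates 1 and 2, and Npm1-201 held 25.27% and 27.5%. Npm1-202 held 17.78% and 15.72%, and Npm1-203 held 15.81% and 12.96%. All 4 are annotated as protein-coding and kept this order in both libraries. Npm1 also has 9 annotated processed pseudogenes that align with it over at least 300 nt at 90% identity or more, of which 7 had a feature in the tables. Those 7 summed to 697 ± 3.49 TPM (SD, n = 2), of which Gm14681 on the X chromosome, 97.4% identical over 420 nt, held 678 ± 5.13 TPM. In expected counts the 7 copies came to 2.21% of the Npm1 count in replicate 1 and 2.11% in replicate 2. Gm14681 itself had 2654 counts in replicate 1, against 131350 for Npm1. Reads shared between Npm1 and its copies were divided by the authors' counting. The posterior SD, a spread from that assignment, was 10.08 counts for Gm14681 in replicate 1 and 11.09 counts in replicate 2. Whether the reads given to Gm14681 came from that copy was not tested.

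Ncl, nucleolin, an RNA-binding protein of the nucleolus, had 141.42 TPM in replicate 1 and 134.16 TPM in replicate 2. It ranked 12 of 34 by TPM but 3 of 34 by mean expected count, with 12463 and 10833 counts. Its coding transcript in the annotation, Ncl-201, is 8202 nt long with a last exon of 5978 nt, and TPM divides counts by length. Ddx21, an RNA helicase that acts in polymerase I transcription and rRNA processing, had 78.68 and 78.22 TPM in replicates 1 and 2. Nolc1, a phosphoprotein that chaperones snoRNA particles, was the lowest of this role over all transcripts, at 52.54 and 54.10 TPM. On protein-coding transcripts alone Ncl had 53.94 and 45.71 TPM in replicates 1 and 2, which overlaps Nolc1. Mybbp1a, a Myb-binding protein known to repress ribosomal DNA transcription, had 132.61 TPM in replicate 1 and 86.98 TPM in replicate 2. It was the least even of the 34 genes, with a coefficient of variation of 29.4%, and its range spans the levels of several neighbours in the order.

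The box C/D particle genes had the highest median of any role, 430 TPM, from 3 genes. Nop56, a core scaffold protein, had 560.94 TPM in replicate 1 and 591.24 TPM in replicate 2. Nop58, its paralogue in the same scaffold, had 402.34 and 458.29 TPM. Fbl, fibrillarin, the methyltransferase of the particle, had 111.55 and 98.28 TPM. Although these proteins sit in one particle, the RNA of Nop56 was 1.34 ± 0.0736 times that of Nop58 and 5.52 ± 0.698 times that of Fbl (SD, n = 2). Counting only protein-coding transcripts, an alternative chosen after the data were seen, the ratio to Nop58 was 1.49 ± 0.0822, and that to Fbl was 4.15 in replicate 1 and 4.85 in replicate 2.

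The count of Fbl was the least certain of the 34 in one respect, how shared reads were assigned: its posterior SD was 1.29% of the count, the largest relative to the count. In 30 genes the deposited counts were exact whole numbers, with no tolerance, in both libraries. Gm5812, a processed pseudogene on chromosome 17 that is 96.9% identical to Fbl over 984 nt, had 38.07 TPM in replicate 1 and 24.64 TPM in replicate 2. With a second copy, Gm6211, the reads given to copies equalled 26.9% of the Fbl count in replicate 1 and 19.7% in replicate 2. Even with all of them added, Fbl would remain the lowest of the 3 box C/D genes. Copies of Nop56 held 11.8 ± 0.495 TPM (SD, n = 2), led by Gm27219 at 10.5 ± 0.785 TPM, about 0.879% of the Nop56 count in replicate 1 and 0.928% in replicate 2.

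Box H/ACA genes had a median of 289 TPM over 4 genes and the widest spread within one particle. Nhp2, an RNA-binding subunit, had 554.83 TPM in replicate 1 and 495.07 TPM in replicate 2. Nop10, the smallest subunit, had 389.59 and 342.33 TPM. Dkc1, dyskerin, the pseudouridine synthase that also binds telomerase RNA, had 200.30 and 224.39 TPM. Gar1, the subunit that completes the mature particle, had 35.07 and 36.10 TPM. The ranges of the 4 genes do not overlap. The Nhp2 RNA level was 1.44 ± 0.0156 times that of Nop10, 2.49 ± 0.399 times that of Dkc1 and 14.8 ± 1.49 times that of Gar1 (SD, n = 2). On protein-coding transcripts alone these ratios were 1.37 ± 0.0115, 3.47 ± 0.448 and 18.6 ± 2.43 (SD, n = 2). Of the 9 other snoRNA-particle genes looked up, all were expressed with a median of 29.1 TPM. They ran from Naf1, the assembly factor that Gar1 replaces on the particle, at 10.93 and 10.99 TPM in replicates 1 and 2, to Snu13, which binds the C/D fold, at 506.25 and 485.63 TPM.

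The 4 small-subunit processome genes had a median of 127 TPM. Wdr43 and Wdr75, WD-repeat proteins of the subcomplex that first joins the nascent precursor, were near each other. Wdr43 had 155.83 TPM in replicate 1 and 170.78 TPM in replicate 2. Wdr75 had 156.68 and 149.21 TPM, which overlaps Wdr43, and the Wdr75 to Wdr43 ratio was 0.940 ± 0.0932 (SD, n = 2). On protein-coding transcripts alone that ratio was 0.521 ± 0.0843. Rrp9, a protein of the U3 snoRNA particle, had 98.90 and 103.49 TPM. Nop14, a structural component, was the lowest of the role at 27.64 and 26.11 TPM. Of 36 other processome genes looked up, all were expressed with a median of 59.4 TPM. Dhx37, the helicase that remodels the processome, was the lowest at 6.83 ± 0.368 TPM, and Emg1, a pseudouridine methyltransferase of 18S rRNA, was the highest at 366 ± 2.93 TPM (SD, n = 2).

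Late 40S maturation genes were the lowest role, with a median of 18.5 TPM over 5 genes. Rrp12, a HEAT-repeat protein of subunit export, had 15.42 TPM in replicate 1 and 16.86 TPM in replicate 2. Nob1, the endonuclease that makes the final cut at the end of 18S rRNA, had 16.40 and 13.10 TPM, and its ranges overlap those of Rrp12. Bysl, bystin, an assembly factor of the pre-40S particle, had 18.45 and 18.61 TPM. These 3 are also the only members below the median of expressed protein-coding genes. Ltv1, an export and assembly factor, had 50.66 and 54.79 TPM, and Tsr1, a GTPase-like factor that blocks premature subunit joining, had 77.81 and 80.16 TPM. The Tsr1 level was 5.43 ± 0.972 times that of Nob1 (SD, n = 2), so the role is split rather than low throughout. Nob1 also had the smallest expected counts of the 34 genes, 506 in replicate 1 and 377 in replicate 2. Of 7 further late 40S genes measured, all were expressed with a median of 33.9 TPM, from Dimt1, an 18S rRNA dimethyltransferase, at 28.5 ± 0.0566 TPM to Pno1, which shields the cleavage site, at 214 ± 0.0283 TPM (SD, n = 2). Riok2, an eighth gene of that list, was not analysed here.

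The 9 genes of 60S assembly were the most even role, with a median of 99.3 TPM and every gene between 82.10 and 211.00 TPM in both libraries. Ebna1bp2, a nucleolar assembly factor, was the highest over all transcripts, at 208.07 TPM in replicate 1 and 211.00 TPM in replicate 2. On protein-coding transcripts alone Ebna1bp2 had 108.4 and 79.59 TPM in replicates 1 and 2. By that measure Gnl3 was the highest of the 9, at 139.63 and 165.91 TPM. Pes1, Bop1 and Wdr12 form one complex that is required for maturation of the large-subunit rRNAs. Pes1 had 176.03 and 193.79 TPM, Bop1 had 90.08 and 84.55 TPM, and Wdr12 had 82.10 and 88.82 TPM. Thus Bop1 and Wdr12 overlapped, with a Wdr12 to Bop1 ratio of 0.981 ± 0.0984, while Pes1 was 2.12 ± 0.239 times Bop1 (SD, n = 2). Much of that difference lay on 1 short transcript: Pes1-203, a 497-nt processed transcript, held 41.43% of the Pes1 TPM in replicate 1 and 49.85% in replicate 2. On protein-coding transcripts alone the Pes1 to Bop1 ratio was 1.15 ± 0.00343 and the Pes1 to Wdr12 ratio 1.27 ± 0.124 (SD, n = 2).

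Gnl3, nucleostemin, a GTPase abundant in proliferating cells, had 139.63 TPM in replicate 1 and 165.91 TPM in replicate 2. Nop2, an rRNA cytosine methyltransferase, had 115.75 and 114.39 TPM. Nop16, a large-subunit assembly factor, had 97.45 and 101.16 TPM. Nip7, an rRNA-binding factor, had 96.82 and 98.81 TPM, and Rrp1, a processing factor known from yeast, had 92.33 and 88.02 TPM. Nop16 and Nip7 overlap, and so do Rrp1 and Bop1. Of 40 other 60S genes looked up, all were expressed with a median of 70.3 TPM, from Ddx51, an RNA helicase, at 9.83 ± 0.962 TPM to Rsl1d1, a nucleolar protein, at 560 ± 36.8 TPM (SD, n = 2). Over the full order of the 34 genes, 15 of 33 neighbouring pairs had overlapping ranges between the 2 libraries, so the rank of a gene in the crowded middle is not resolved.

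The 34 genes were set beside the lists of related genes. The median of the 34 was 100.25 TPM, against 55.1 TPM for the other 104 biogenesis genes, all expressed. The 77 mitochondrial ribosomal protein genes, whose products make the organelle's ribosome, had a median of 84.3 TPM, from Mrps27 at 21.8 ± 1.04 TPM to Mrps21 at 387 ± 58.0 TPM (SD, n = 2), and all were expressed. Cytosolic ribosomal protein genes, the products that the pathway assembles, had a median of 1696 TPM over 83 genes, of which 81 were expressed. The 2 that were not are Rpl10l, with 0 counts, and Rpl3l, at 0.150 ± 0.0424 TPM (SD, n = 2). Npm1 was the single member above the median of the cytosolic ribosomal protein genes. Its 6184.85 and 6419.41 TPM in replicates 1 and 2 lay above Rplp1, the highest of them by mean, at 6105.2 and 5012.25 TPM. These medians are descriptions of lists chosen by name, and no test was made between them.

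**Figure D2:**
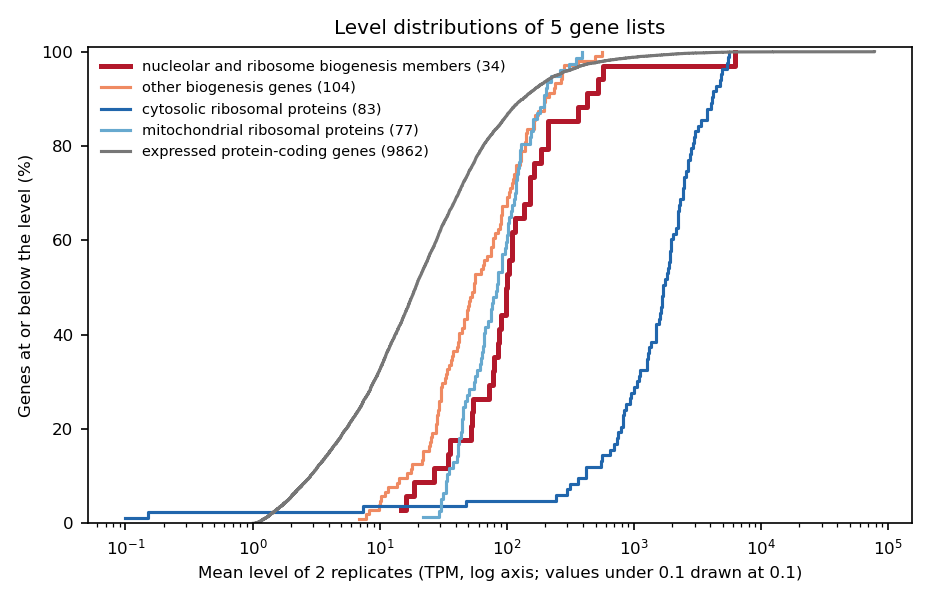
Cumulative share of genes (vertical axis, %) at or below a mean level in TPM (log axis) for the 34 genes, 104 other biogenesis genes, 83 cytosolic and 77 mitochondrial ribosomal protein genes and 9862 expressed protein-coding genes. The 34 genes (median 100.25 TPM) lie right of the expressed genes (19.2 TPM) and far left of the cytosolic ribosomal proteins (1696 TPM).

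The replicates were then compared gene by gene, as replicate 1 minus replicate 2 of log2(TPM + 0.5). The 11661 genes tested had 20 or more expected counts on average, and 314 of them differed by more than 1.5-fold (2.69%), with 214 higher in replicate 1 (1.84%) and 100 lower (0.858%). With counts scaled to the ERCC spike-ins the balance was the other way round, with 46 higher in replicate 1 and 605 lower. Of the 34 genes, 1 did: Mybbp1a, at 0.61 on the log2 scale. The next were Nob1 at 0.31 and Gnl3 at -0.25. All others were closer than these. The median of the members' absolute differences was 0.078, against 0.135 over all genes tested. With trimmed-mean scaling of counts the gap was smaller, 0.102 against 0.128. With ERCC scaling it was reversed, 0.331 against 0.300. The members are counted more deeply than most genes, and among the 4344 genes with 1000 to 10000 mean counts the medians were 0.081 over 27 members and 0.111 over all genes. From 100 to 1000 counts they were 0.177 over 2 members and 0.143 over all genes, and above 10000 counts 0.076 over 5 members and 0.124 over all genes. With 1 library on each side no p-value exists, and the values describe these 2 libraries.

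The Mybbp1a difference depended on how it was measured. It had 7074 expected counts in replicate 1 and 4965 in replicate 2, which gave 0.44 on the log2 scale after trimmed-mean scaling, under the 1.5-fold limit of 0.58. Mybbp1a-204, a retained-intron transcript of 427 nt, held 34.58% of its TPM in replicate 1 and 25.82% in replicate 2, on 195.76 and 92.23 expected counts. The coding transcripts held 75.01 TPM in replicate 1 and 55.02 TPM in replicate 2, a difference of 0.44. Replicate 1 was thus higher on every one of these measures, by more or less than 1.5-fold. Scaled to the ERCC spike-ins, it was higher by 0.14, and the same scaling moved the median of all tested genes to -0.29 and that of the members to -0.33.

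**Figure D3:**
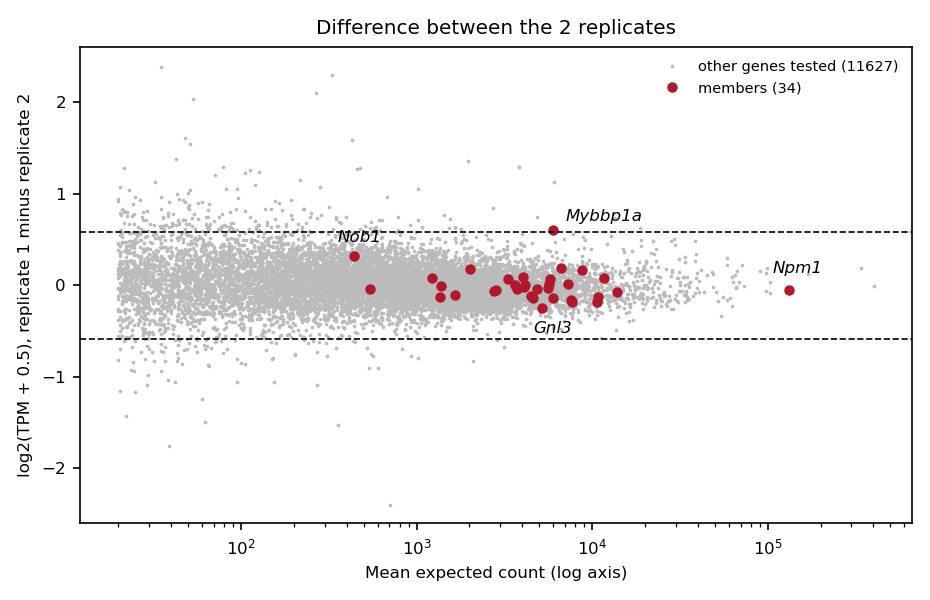
Difference between replicates, log2(TPM + 0.5) in replicate 1 minus replicate 2, against mean expected count (log axis) for 11661 genes (grey) with the 34 genes in red; dashed lines mark 1.5-fold. Of the 34, Mybbp1a alone lies beyond a line, at 0.61, and Npm1, the most counted, lies at -0.05.

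At the transcript level the tables hold 161 transcripts for the 34 genes. For 14 genes 1 transcript is listed, and of the other 20, 4 had a leading transcript above 90% of the gene's TPM. The leading transcript was not protein-coding in 2 genes. The same counts were not made over all expressed genes, so whether the 34 genes differ from them in this was not tested. Ncl-202, a retained-intron transcript of 3072 nt, held 41.60% of the Ncl TPM in replicate 1 and 45.66% in replicate 2, while the coding Ncl-201 held 36.55% and 32.75%. Ebna1bp2-202, a processed transcript of 788 nt, held 41.72% and 53.78% of the Ebna1bp2 TPM, while 2 coding transcripts, Ebna1bp2-204 (602 nt) and Ebna1bp2-201 (2960 nt), held 33.39% and 16.52%, and 18.70% and 21.20%, in replicates 1 and 2. All coding transcripts of Ebna1bp2 together held 108.4 TPM in replicate 1 and 79.59 TPM in replicate 2, of 208.07 and 211.00 TPM for the gene. By expected counts a coding transcript led in both genes, with 69.2% and 64.9% for Ncl-201 and 56.3% and 58.3% for Ebna1bp2-201, and these are longer than the non-coding transcripts that led by TPM. Ebna1bp2-204 held 13.9% and 6.29% of the expected counts.

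Over 10% of TPM lay on transcripts not annotated as protein-coding in 12 of 34 genes, a share reached by 29.6% of expressed protein-coding genes. By expected counts, an alternative chosen after the data were seen, 5 of 34 genes passed the same limit, against a background of 17.9%. Neither share is far from its background. The highest were Ncl at 63.9% ± 2.88, Ebna1bp2 at 55.1% ± 10.2, Pes1 at 45.6% ± 5.96, Wdr75 at 44.7% ± 3.50 and Mybbp1a at 40.1% ± 4.73 of TPM (SD, n = 2). Of these, Ncl (32.8% ± 3.03), Ebna1bp2 (32.6% ± 3.97) and Wdr75 (30.1% ± 0.445) stayed high by expected counts, whereas Pes1 (7.97% ± 1.76) and Mybbp1a (8.23% ± 0.174) did not (SD, n = 2). In the last pair the non-coding share rests on short transcripts that gather few reads. Nop58 carried 14.65% and 16.62% of its TPM on Nop58-205, a 373-nt transcript annotated for nonsense-mediated decay, on 185.24 and 230.44 counts.

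**Figure D4:**
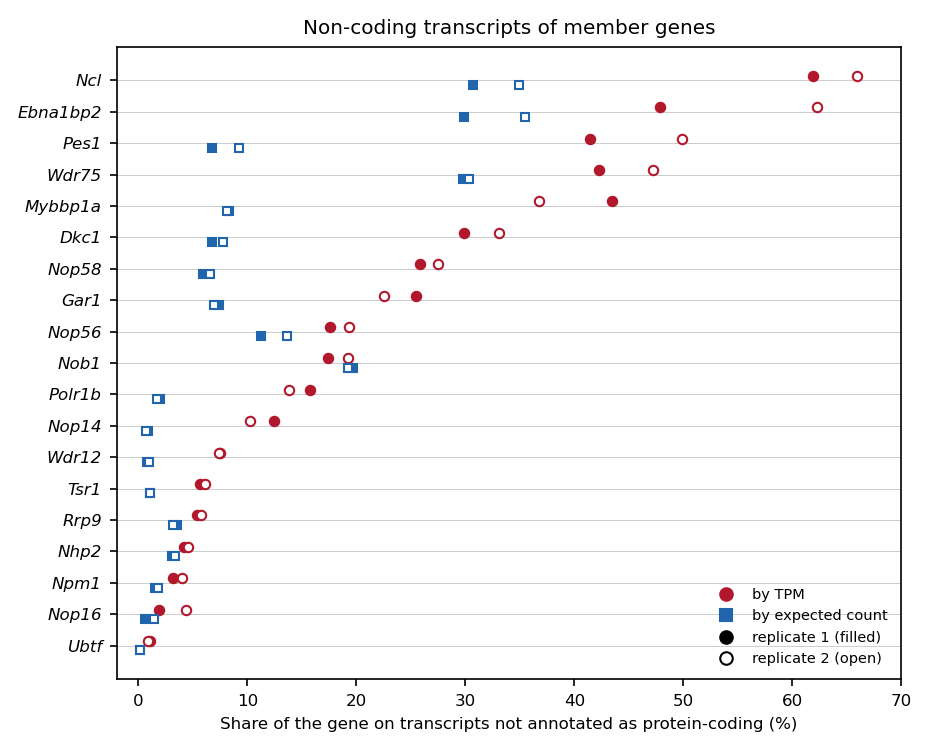
Share of each gene's TPM (circles) and expected counts (squares) on transcripts not annotated as protein-coding, in replicate 1 (filled) and replicate 2 (open), for the 19 genes with such a transcript. Ncl, Ebna1bp2 and Wdr75 are high by both measures, near 30% or more, while Pes1 and Mybbp1a drop to about 8% by counts.

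A further property shared by several of the 34 genes is that their introns hold snoRNA genes, the guides of the very particles in which some of the proteins work. In vertebrates most snoRNAs are cut from introns of host genes. A snoRNA gene on the same strand lay within 7 of the 34 genes, against 1.90% of expressed protein-coding genes. On either strand the number was again 7, against 2.91%. The hosts were Nop56 with 5, Nop58 with 4, Ncl, Wdr43 and Gnl3 with 3 each, Tsr1 with 2 and Dkc1 with 1. All 21 lay within introns of the main coding transcript. The 7 hosts had a median of 163 TPM, against 90.2 TPM for the other 27 members. Across all expressed protein-coding genes, hosts had a median of 45.3 TPM, against 19.2 TPM for expressed protein-coding genes as a whole.

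**Figure D5:**
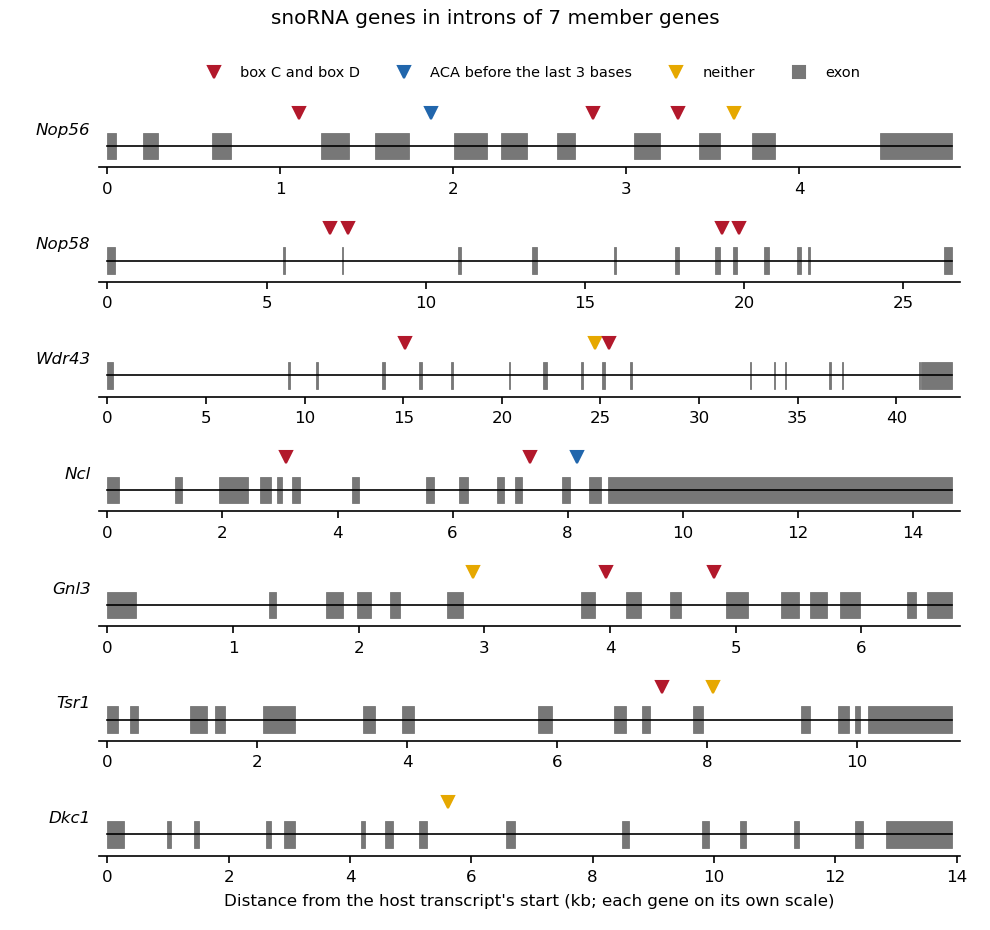
Exons (grey boxes) of the main coding transcript of the 7 host genes with the positions of 21 snoRNA genes (triangles), by distance from the transcript's start in kb, each gene on its own scale. The triangles lie between exons, and 14 of 21 are marked as holding both box C and box D letters.

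The sequences were read for the letters of both families. Box C/D guides were searched for TGATG within 25 bases of the start and CTGA within 25 bases of the end on the RNA's strand, and box H/ACA guides for ACA just before the last 3 bases. Of the 21, 14 held both C/D letter runs, 2 held the ACA and 5 met neither rule. A sequence with TGATG or CTGA but not both, and without the ACA, counts among the 5. Examples are Snord53 of Wdr43, with TGATG near its start, and Snord57 of Nop56, with CTGA near its end. Over the 1507 annotated snoRNA genes the shares were 24.0% for both C/D runs and 17.9% for the ACA without both runs. The letters of box C were shortened after the sequences had been read, and with the full TGATGA and CTGA 9 of 21 matched, against 20.7% of annotated snoRNA genes. A match is a description of letters. The sequences below, 5′ to 3′ from the GENCODE annotation of GRCm38, show 1 or more guides from each of 6 hosts, with the matched letters in capitals. Those of Nop56 and Nop58 lie in the genes of the C/D scaffold proteins themselves.
Snord110 in intron 3 of Nop56, chr2:130275506-130275573, plus strand: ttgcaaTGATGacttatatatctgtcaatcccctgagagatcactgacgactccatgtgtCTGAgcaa
Snord70 in intron 2 of Nop58, chr1:59691934-59692020, plus strand: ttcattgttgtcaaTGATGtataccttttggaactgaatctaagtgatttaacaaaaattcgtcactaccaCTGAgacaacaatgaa
Gm26293 in intron 3 of Nop58, chr1:59692509-59692592, plus strand: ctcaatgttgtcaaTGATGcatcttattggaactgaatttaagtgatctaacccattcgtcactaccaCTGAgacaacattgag
Snord82 in intron 5 of Ncl, chr1:86356261-86356330, minus strand: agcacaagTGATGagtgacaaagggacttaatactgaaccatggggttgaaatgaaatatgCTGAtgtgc
Snora75 in intron 12 of Ncl, chr1:86351169-86351301, minus strand: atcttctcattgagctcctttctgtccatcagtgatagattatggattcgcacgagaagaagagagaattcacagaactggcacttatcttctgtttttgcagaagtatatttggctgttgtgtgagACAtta
Snord92 in intron 4 of Wdr43, chr17:71631281-71631365, plus strand: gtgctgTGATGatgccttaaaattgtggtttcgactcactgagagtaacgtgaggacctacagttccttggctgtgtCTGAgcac
Snord69 in intron 9 of Gnl3, chr14:31014287-31014366, minus strand: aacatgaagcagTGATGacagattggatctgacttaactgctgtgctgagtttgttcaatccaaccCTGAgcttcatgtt
Snord91a in intron 10 of Tsr1, chr11:74905424-74905516, plus strand: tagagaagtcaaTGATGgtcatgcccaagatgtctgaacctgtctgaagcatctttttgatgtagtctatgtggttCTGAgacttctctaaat

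In Nop58, Tsr1 and Gnl3, some snoRNAs in neighbouring introns shared stretches of sequence. Among 26 pairs of snoRNAs within a host, 4 pairs shared an unbroken run of 15 bases or more. The median longest run over the same 26 pairs was 9 bases. Pairs from different hosts were not compared, so no background share is given. Snord70 and Gm26293 of Nop58, printed above, shared 25 bases, attcgtcactaccactgagacaaca, which include box D. Snord91a of Tsr1 and Gm22771 in the following intron shared 24 bases, atgtctgaacctgtctgaagcatc. The other 2 pairs, in Gnl3 and Nop58, shared 15 bases each.

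None of the 21 snoRNAs could be measured: each had 0 counts in both libraries. They are 68 to 133 nt long, below the 200 nt size selection of the RNA, so the 0 counts say nothing about their abundance. Annotated exons of other transcripts of the same host overlap 10 of the 21, in 4 hosts.

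Divergent and overlapping neighbours were read from the same annotation. A protein-coding gene started on the opposite strand within 1000 bases of the start of 10 of the 34 genes, against 18.9% of expressed protein-coding genes. Examples are Gnl3 and Pbrm1, a chromatin-remodelling subunit, with starts 14 bases apart, and Polr1a and Ptcd3, a mitochondrial ribosomal protein, 303 bases apart. Pbrm1 had 17.64 TPM in replicate 1 and 19.02 TPM in replicate 2, and Ptcd3, the highest of these neighbours, had 99.69 and 117.65 TPM. Not all neighbours were expressed. Cfap57, 22 bases from Ebna1bp2, had 0 TPM in both libraries. Grk4, 231 bases from Nop14, had 0.44 and 0.29 TPM in replicates 1 and 2. Exons overlapping a gene on the other strand were mostly short. The longest overlap was 1240 bases of Tsr1, 32.3% of its exonic bases, with Srr, serine racemase, which had 4.73 ± 0.523 TPM (SD, n = 2). Next came 361 bases of Bysl (9.37%) with Ccnd3, cyclin D3, at 23.3 ± 0.382 TPM, above Bysl itself. The strand setting of the counting is not given in the sources used here. Whether the levels of Tsr1 and Bysl include reads of these partners was not tested. Expected counts of both pairs were whole numbers in replicates 1 and 2. They were 4908 and 4831 for Tsr1, 163 and 191 for Srr, 1400 and 1355 for Bysl, and 843 and 784 for Ccnd3.

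MYC binds the E-box CACGTG and is known to drive genes of this pathway, and the letters were looked up in RefSeq windows (GRCm38.p6) of 250 bases before to 50 bases after each start. A window existed for 30 of the 34 genes, and 7 of the 30 held CACGTG, which reads the same on both strands, against 12.2% of expressed protein-coding genes and 8.09% of all genes with a window. The 7 were Nop2, Ltv1, Pes1, Mybbp1a, Tsr1, Rrn3 and Wdr43, and in 5 of them the letters lay after the start. In the 250 bases before the start alone, 2 of 30 genes held it, against 10.2% of expressed protein-coding genes. Whether the share lay above its background thus depended on the window, and with so few genes it is not resolved. No windows were found for Npm1, Fbl, Bop1 and Rrp12. The 250 bases before the start are printed for Nop2 and Rrn3, the 2 genes with the letters there, shown in capitals. Rrn3 held them at 2 places, with first bases 215 and 48 bases before the start.
Nop2, chr6:125131633-125131882, plus strand: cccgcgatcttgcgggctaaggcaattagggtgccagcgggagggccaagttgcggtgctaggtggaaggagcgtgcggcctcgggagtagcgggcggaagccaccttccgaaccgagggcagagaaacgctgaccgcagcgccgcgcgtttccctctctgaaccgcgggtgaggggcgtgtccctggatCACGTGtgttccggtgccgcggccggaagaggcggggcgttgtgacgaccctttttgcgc
Rrn3, chr16:13780449-13780698, plus strand: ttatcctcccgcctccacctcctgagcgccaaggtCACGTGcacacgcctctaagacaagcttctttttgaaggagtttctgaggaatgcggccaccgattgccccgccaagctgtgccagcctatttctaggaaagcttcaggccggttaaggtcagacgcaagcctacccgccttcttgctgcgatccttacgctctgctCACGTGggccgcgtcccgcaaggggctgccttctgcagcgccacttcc
No binding was measured here, and the letters alone show neither a bound site nor a cause of any level.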

How the data were processed

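For each of the 2 libraries the authors deposited a gene table and a transcript table, made from transcriptome alignments to mm10 with GENCODE annotation M4, per the deposited text files. No source used here names the aligner, the quantification tool or the strand setting of the counting (not given in the sources used here). Expected counts, per the file headers, are estimated reads per feature with shared reads divided, not normalized. TPM values were deposited by the authors per effective length and scaled over all features, spike-ins included, so a gene's value moves with all other RNA. FPKM values and posterior means, deposited by the authors, served as alternatives. The isoform percent deposited by the authors is a transcript's share of its gene's TPM.

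Symbols, types, exons and snoRNA positions came from GENCODE M21 on GRCm38 by identifier, and 884 of 43346 genes had no symbol. Genes were called expressed when each replicate had at least 1 TPM. For differences, log2(TPM + 0.5) in replicate 2 was subtracted from that in replicate 1, over genes averaging 20 or more expected counts, with 1.5-fold as the limit. The pseudocount shrinks the differences of genes at low levels. Values over both replicates are mean ± SD, a spread that may be partly technical. Scaling alternatives used edgeR 4.0.16 trimmed-mean factors, median-of-ratios factors and the total of 96 ERCC spike-ins. The difference procedure was tested on simulated data, but the outcome is not given here and no result rests on it. Pseudogene copies were found with BLAST 2.17.0 (300 nt, 90% identity). The 34 genes and all lists were chosen with earlier results of these data known. All 34 are named, and of the other lists the highest and lowest genes and any below 1 TPM that the text needs. Neighbouring genes, host examples, printed sequences and named transcripts were chosen after their values were seen.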

Additional observations from a re-analysis of the deposited data

How the results depend on the processing

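All 34 genes stayed expressed at limits of 0.5, 5 and 10 TPM and in either replicate alone, and 7 genes held snoRNA genes on either strand as on the same strand. The median level was 98.7 TPM by posterior mean TPM and 85.4 by FPKM, and 98.175 to 98.545 TPM without a replicate. Members beyond the fold between replicates numbered 0 with counts scaled by TMM, by median-of-ratios or by ERCC and 0 at 2-fold. Over the 11661 genes tested the numbers were 242, 240, 651 and 49, in that order. The number of members stayed at 1 under the other 7 alternatives run. A step from 1 to 0 of 34 rests on a single gene, Mybbp1a, and is no result about the members. Genes beyond the fold, 314 of 11661 as reported, numbered 513 with a pseudocount of 0.1 and 651 with ERCC scaling. They numbered 1562 at the lower fold limit tried and 49 at 2-fold. Changing the filter also changed the number tested: 957 of 43346 genes with no filter on counts, and 126 of 9763 at 100 or more counts. ERCC scaling moved the members' median difference to -0.331, and the cause was not tested: the spike-ins held 78336 counts in replicate 1 and 60634 in replicate 2. The E-box count fell from 7 to 2 of 30 genes with bases before the start only, against 10.2% of expressed protein-coding genes. With so few genes, the side of the background on which the members' share lies is not resolved. ERCC scaling turned the split of genes beyond the fold to 46 higher and 605 lower in replicate 1. The sign of a single member's difference changed in 11 of 34 genes with ERCC scaling, 4 with TMM, 3 with median-of-ratios, 2 with posterior mean TPM and 1 with FPKM, none of them beyond the fold. No paired analysis was possible because there is 1 group. Leaving out a replicate gives no difference between replicates, so none was computed. The lowest count behind any of the 34 genes was 377 (Nob1).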
